A study of Mus musculus with 36 samples.

Results

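The chromatin around Meis1 was described from the peaks that ATAC-seq called near the gene. ATAC-seq marks open chromatin by the places where a transposase inserts sequencing adapters. Peaks of all 36 libraries that overlapped by 1 bp or more were merged into a catalogue of 105005 regions, and a region belonged to Meis1 when its centre lay nearest to a Meis1 transcription start site (TSS) among the TSSs of protein-coding genes. This rule gave 44 regions. Each library was scored for every region by whether any of its own peaks fell there (a call), and the level was the highest fold enrichment among those peaks, which is the read density over the local background. The nearest TSS need not belong to the gene on which a region acts.

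Meis1 (ENSMUSG00000020160.18) lies on the minus strand of mouse chromosome 11, at chr11:18879817-19018985 of build mm10. The nearest protein-coding TSSs on either side were those of Etaa1, 1065.1 kb away in the direction of transcription, and Spred2, 905.4 kb upstream. Meis1 encodes a homeodomain transcription factor of the TALE class, which binds DNA together with PBX and HOX proteins. It is known for its role in the maintenance of hematopoietic stem cells, is expressed at lower levels as blood cells mature, and drives leukemia together with HOXA9 when its expression persists. Regulatory elements in its introns and in the gene-poor stretches on either side are known to act on it in blood cells.

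The libraries came from female C57BL/6 mice, young (10-week-old) or aged (20 months), with no mutation or treatment in either age, and each was made from 20000 sorted bone marrow cells. Hematopoietic stem cells (HSCs) had 4 libraries per age. MPP1, MPP2, MPP3 and MPP4, which are multipotent progenitors, had 2 libraries per age each, as had GMPs (granulocyte and macrophage progenitors), MEPs (megakaryocyte and erythrocyte progenitors) and CLPs (common lymphoid progenitors). Marrow of each age was pooled before sorting, so p-values measure the spread between these libraries, and that spread may be technical. The fractions were defined by surface markers alone, and in such bulk libraries a smaller share of cells with open chromatin and less open chromatin in every cell cannot be told apart.

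Every library other than those of MEPs held 27087 to 63288 peaks, with the highest numbers in the GMP libraries. The 4 MEP libraries held 9581 to 11041. The read number was made equal by the authors and is not given in the files. The weakest 5% of called regions lay under a fold enrichment of 4.50 to 5.37 in a library, and calls occurred down to 2.95 at Meis1, so a missing call cannot tell weakly open from closed chromatin. Of the marker regions, those nearest to the TSS of Mpo and Elane were called in 4 of 4 GMP libraries and that of Cebpe in 3 of 4, with 0 of 8 HSC libraries for each. The lymphoid markers did not single out CLPs. The Il7r region was called in 4 of 4 CLP, 4 of 4 GMP and 4 of 4 MPP4 libraries, and those of Dntt and Ebf1 in 3 of 4 CLP but also in 8 of 8 HSC and 4 of 4 GMP libraries. The region of Epor was called in 4 of 4 MEP and 8 of 8 HSC libraries, and those nearest to Gata1 and Klf1 in 1 of 4 MEP libraries each. The Gata1 region was called in 3 of 4 MPP2 libraries, and the Klf1 region in 8 of 8 HSC libraries and 4 of 4 of each MPP fraction, GMPs and CLPs, so the markers did not single out MEPs. The HSC markers did not single out HSCs either, since the Hlf region was called in 8 of 8 HSC libraries and in 4 of 4 of every other fraction except MEPs (1 of 4), and the Mecom TSS region in 0 of 8 HSC libraries. The word "new" stands in the peak names of 9 aged libraries out of 18 and of 2 young ones, among them all 4 aged MPP3 and MPP4 libraries and no young MPP library, and HSC replicates 3 and 4 have names of another form than replicates 1 and 2. What these forms mean is not given, and age and name cannot be told apart in MPP3 and MPP4.

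The following sequences come from the TSS and from 8 of the other regions whose calls differed between fractions in the test described further on. They were read from the GRCm38 assembly (mm10) and show the 234 bases before the most upstream Meis1 TSS, written in the direction of the gene as in the RefSeq promoter table of that assembly, and 201 bases around the median summit of 8 regions, written on the plus strand. Capitals mark matches, on either strand, to the short motifs described further on. The 8 regions are the 2 strong intronic regions shared by most fractions, 3 called mainly in HSCs and MPPs, 1 called mainly in GMPs and CLPs, and 1 each of GMPs and of CLPs. Of the 3, the region 362.2 kb upstream was also called in 2 CLP libraries.
Meis1 TSS, chr11:19018986-19019219, minus strand: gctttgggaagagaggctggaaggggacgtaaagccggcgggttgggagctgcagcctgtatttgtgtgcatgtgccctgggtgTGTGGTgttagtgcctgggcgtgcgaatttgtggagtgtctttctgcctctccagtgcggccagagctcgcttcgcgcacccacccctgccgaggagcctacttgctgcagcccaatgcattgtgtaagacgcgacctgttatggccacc
93.6 kb downstream, chr11:18925010-18925210, plus strand: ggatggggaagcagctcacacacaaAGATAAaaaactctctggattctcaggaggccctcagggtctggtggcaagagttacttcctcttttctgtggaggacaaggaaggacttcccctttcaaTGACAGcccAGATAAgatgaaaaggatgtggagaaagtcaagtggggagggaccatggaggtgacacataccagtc
48.5 kb downstream, chr11:18970087-18970287, plus strand: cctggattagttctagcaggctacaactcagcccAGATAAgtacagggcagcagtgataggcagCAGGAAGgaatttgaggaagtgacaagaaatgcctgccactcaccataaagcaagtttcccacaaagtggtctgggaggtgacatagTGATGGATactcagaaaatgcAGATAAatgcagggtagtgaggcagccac
37.1 kb downstream, chr11:18981485-18981685, plus strand: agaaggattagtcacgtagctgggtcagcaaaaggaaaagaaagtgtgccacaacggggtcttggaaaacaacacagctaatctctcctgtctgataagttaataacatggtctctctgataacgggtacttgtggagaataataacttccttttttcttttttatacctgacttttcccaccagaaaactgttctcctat
93.4 kb upstream, chr11:19112308-19112508, plus strand: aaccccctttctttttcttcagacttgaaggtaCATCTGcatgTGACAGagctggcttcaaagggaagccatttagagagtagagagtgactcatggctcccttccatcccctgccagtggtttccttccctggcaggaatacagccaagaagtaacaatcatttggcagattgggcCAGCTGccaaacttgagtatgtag
362.2 kb upstream, chr11:19381151-19381351, plus strand: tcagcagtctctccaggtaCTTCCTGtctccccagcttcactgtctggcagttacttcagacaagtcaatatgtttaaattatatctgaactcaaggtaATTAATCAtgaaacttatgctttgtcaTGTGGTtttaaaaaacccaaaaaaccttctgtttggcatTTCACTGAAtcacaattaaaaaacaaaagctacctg
116.7 kb upstream, chr11:19135669-19135869, plus strand: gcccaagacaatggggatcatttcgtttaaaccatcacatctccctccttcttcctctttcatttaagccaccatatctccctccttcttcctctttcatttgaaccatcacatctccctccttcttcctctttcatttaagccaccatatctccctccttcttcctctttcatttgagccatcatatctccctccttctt
204.4 kb downstream, chr11:18814235-18814435, plus strand: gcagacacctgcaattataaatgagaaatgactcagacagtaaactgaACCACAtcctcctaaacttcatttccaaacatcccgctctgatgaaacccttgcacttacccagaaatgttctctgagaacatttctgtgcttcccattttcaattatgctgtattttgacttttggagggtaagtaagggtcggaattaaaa
452.0 kb upstream, chr11:19470890-19471090, plus strand: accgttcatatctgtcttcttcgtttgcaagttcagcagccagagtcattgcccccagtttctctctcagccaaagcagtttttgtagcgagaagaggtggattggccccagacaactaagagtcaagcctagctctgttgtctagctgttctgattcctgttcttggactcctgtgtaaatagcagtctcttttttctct

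The 44 regions stretched from 528.7 kb downstream to 452.0 kb upstream of the TSS, as the map of the locus shows. Of them, 1 lay at the TSS, 14 in introns of Meis1, 3 in exons near its 3′ end, 11 beyond the 3′ end and 15 upstream of the gene. Within 10 kb of the TSS lay 4, and the share of the catalogue at such distances was not worked out. Genes with a region had a median of 4, and 75 of 17843 genes (0.420%) had 44 or more. No Meis1 region was called in all 36 libraries. In all, 9 were called in 1 library (20.5%, against 18.4% of the catalogue), 28 in 2 to 27 libraries and 7 in at least 28 (15.9% against 16.3%). Widths ran from 138 to 968 bp, with a median of 354 bp (336 bp in the catalogue).

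**Figure D1:**
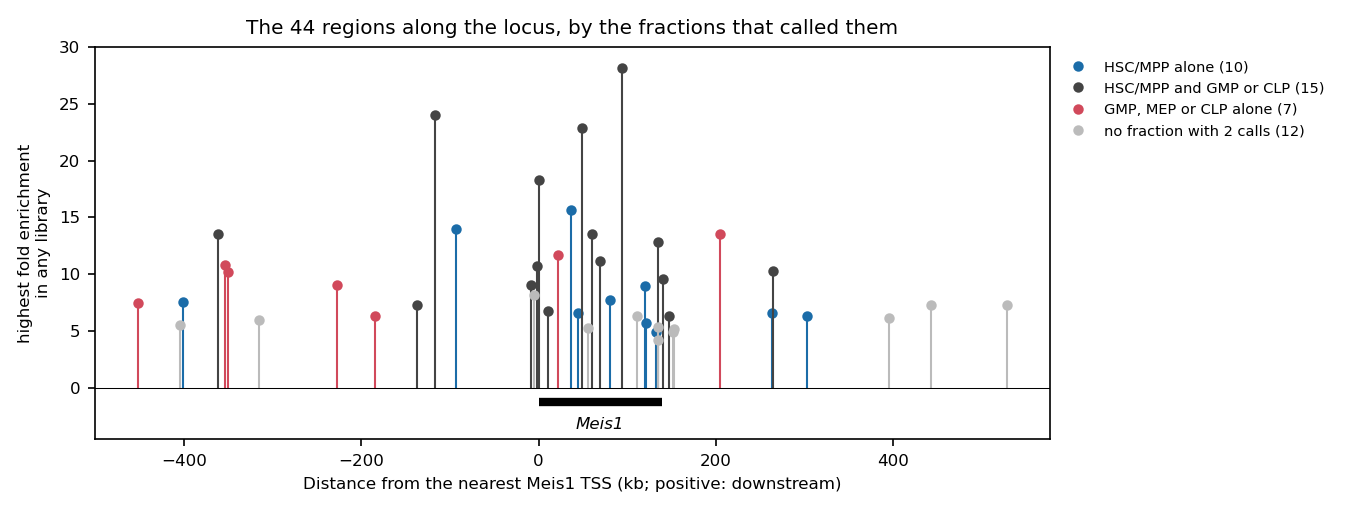
Highest fold enrichment in any library of each of the 44 Meis1 regions (vertical axis) against the distance of its centre from the nearest Meis1 TSS in kb (horizontal axis, positive in the direction of transcription), with the gene as a black bar and colours for the fractions that called the region in 2 or more libraries. The highest values, 28.2 at 93.6 kb downstream, 24 at 116.7 kb upstream and 22.9 at 48.5 kb downstream, lay away from the TSS, which reached 18.3.

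The regions fell into classes by the fractions in which 2 or more libraries called them. HSCs or MPPs alone called 10 regions (22.7% of the 44, against 13.8% of the catalogue). HSCs or MPPs together with GMPs or CLPs called 15 (34.1% against 35.9%). GMPs, CLPs or MEPs alone called 7 (15.9% against 27.8%), of which 4 were of GMPs, 2 of CLPs and 1 of MEPs. The other 12 regions had no fraction with 2 calls (27.3% against 22.5%). HSC libraries called 26 of the 44 regions at least once, and 18 were called in no HSC library. A single HSC library called 10 to 20 of the 44, and 26701 to 37422 of the 105005 regions of the catalogue. For the 26 and 18, and for the split of the 7 by fraction, no share of the catalogue was worked out, so these counts only describe the locus.

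**Figure D2:**
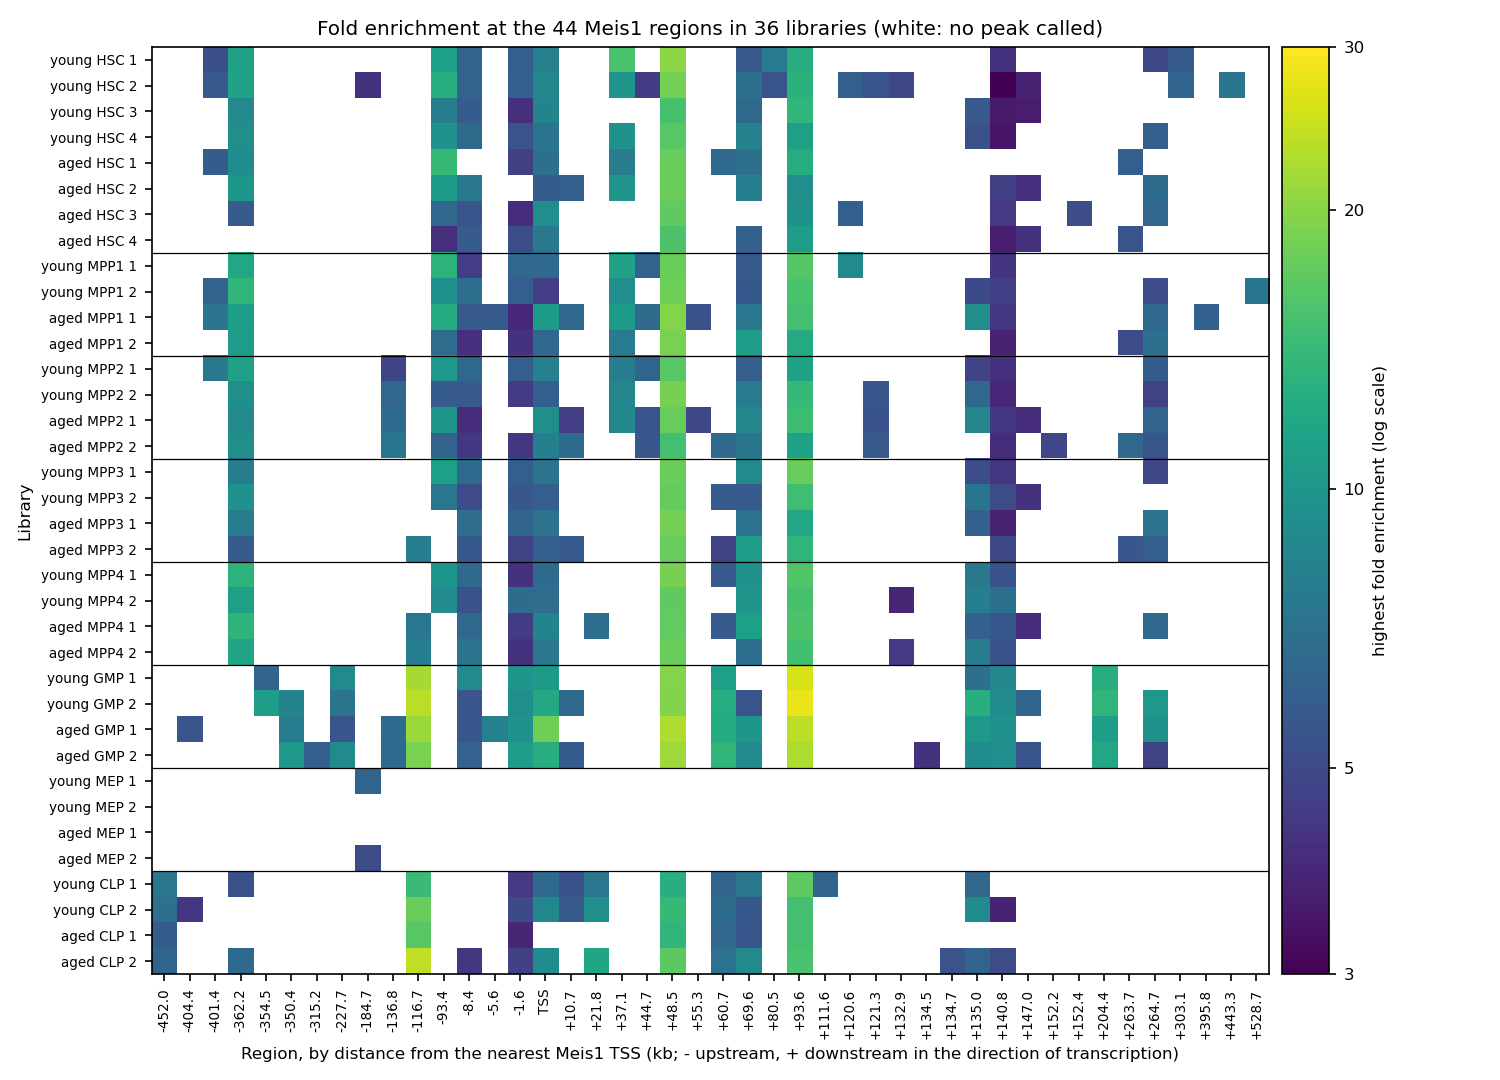
Highest fold enrichment (colour, log scale) at the 44 Meis1 regions, ordered by distance from the TSS in kb (horizontal axis), in each of the 36 libraries (vertical axis), with white where no peak was called. The columns at +48.5 and +93.6 kb and at the TSS are filled in nearly every library other than those of MEPs, while those 116.7 kb and 227.7 kb upstream and 204.4 kb downstream are filled in GMP libraries and empty in HSC libraries.

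At the TSS, the region chr11:19018668-19019227 covered the first exon's start and the sequence before it, and was called in 31 of 36 libraries. Its fold enrichment was 8.20, 8.70, 8.46 and 7.29 in young HSCs and 6.96, 5.93, 9.30 and 7.52 in aged HSCs. The ages overlapped. MPP libraries lay between 4.56 and 10.5, with both extremes in MPP1. GMPs had 10.5 and 12.1 (young) and 18.3 and 12.5 (aged), so the lowest GMP library was level with the highest HSC or MPP library. CLPs had 6.61 and 8.79 (young) and 9.20 (aged), with no call in the other aged library. Among the called regions of its libraries it stood at the 3.98 to 81.7 percentile. Medians by fraction ran from 25.2 in MPP3 to 60.7 in GMPs, with 43.4 in HSCs, 49.0 in MPP2 and 53.0 in CLPs. The median fold enrichment over all called regions was itself higher in GMP libraries (10.2 to 10.8) than in those of the other fractions (6.74 to 8.95), and its part in the GMP levels given here and further on was addressed only by the centred comparisons. Of the TSS regions of all genes that were called in all 8 HSC libraries, 18.4% (1576 of 8587) had no call in any MEP library, and the Meis1 TSS was one of them.

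The regions 1.6 kb and 8.4 kb upstream accompanied the TSS in most libraries at lower levels. The one at 1.6 kb (chr11:19020353-19020746) was called in 30 libraries with a median fold enrichment of 5.12, and the one at 8.4 kb (chr11:19027090-19027745) in 28 libraries with a median of 5.85. The 1.6 kb region ranged from 9.48 to 10.7 in the 4 GMP libraries and from 3.85 to 6.79 elsewhere, so the groups did not overlap. The 8.4 kb region was called in 23 of 24 HSC and MPP libraries, 4 of 4 GMP libraries and 1 of 4 CLP libraries.

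Of the regions shared by HSCs and the other fractions except MEPs, those with the highest levels were in introns. The region 48.5 kb downstream (chr11:18969917-18970422) was called in every HSC, MPP, GMP and CLP library and stood at the 81.9 to 98.2 percentile of the called regions of each. Young HSCs had 20.1, 18.6, 15.4 and 16.5, and aged HSCs 17.7, 17.7, 17.2 and 15.8. MPP libraries ranged from 15.1 to 19.6, within the range of HSCs or close to it. GMPs had 19.6, 19.4, 22.9 and 21.4, and CLPs 12.8, 14, 13.7 and 16.8. By mean, GMPs were at the top of the order and CLPs at the bottom, with ranges that overlapped those of HSCs in both cases.

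The region 93.6 kb downstream (chr11:18924751-18925387), also intronic and also called in every library other than those of MEPs, varied more. It had 12.6, 13.1, 13.6 and 11.1 in young HSCs, and 12.5, 9.25, 9.70 and 10.9 in aged HSCs. By mean ± SD, HSCs (11.6 ± 1.61, n = 8) came first in ascending order, followed by MPP2 (12.8 ± 1.80), MPP3 (14.4 ± 2.37), MPP1 (14.9 ± 1.79), MPP4 (15.5 ± 0.501) and CLPs (15.6 ± 0.880), each with n = 4. These neighbours lay within each other's spread. GMPs stood clear of the rest with 26, 28.2, 23.8 and 22.7, against 17.5 in the highest library of any other fraction.

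Beside these, the intronic region 69.6 kb downstream was called in 30 libraries (5.44 to 11.1), and the region 140.8 kb downstream, just beyond the 3′ end of the gene, in 29. The latter was weak in HSCs, at 2.95 to 4.64, and reached 8.70 to 9.59 in GMPs, with MPP4 between them at 5.36 to 7. The region 135.0 kb downstream, in the 3′ exon, was called in 2 of 8 HSC libraries, both young, and in 4 of 4 MPP4 and 4 of 4 GMP libraries.

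**Figure D3:**
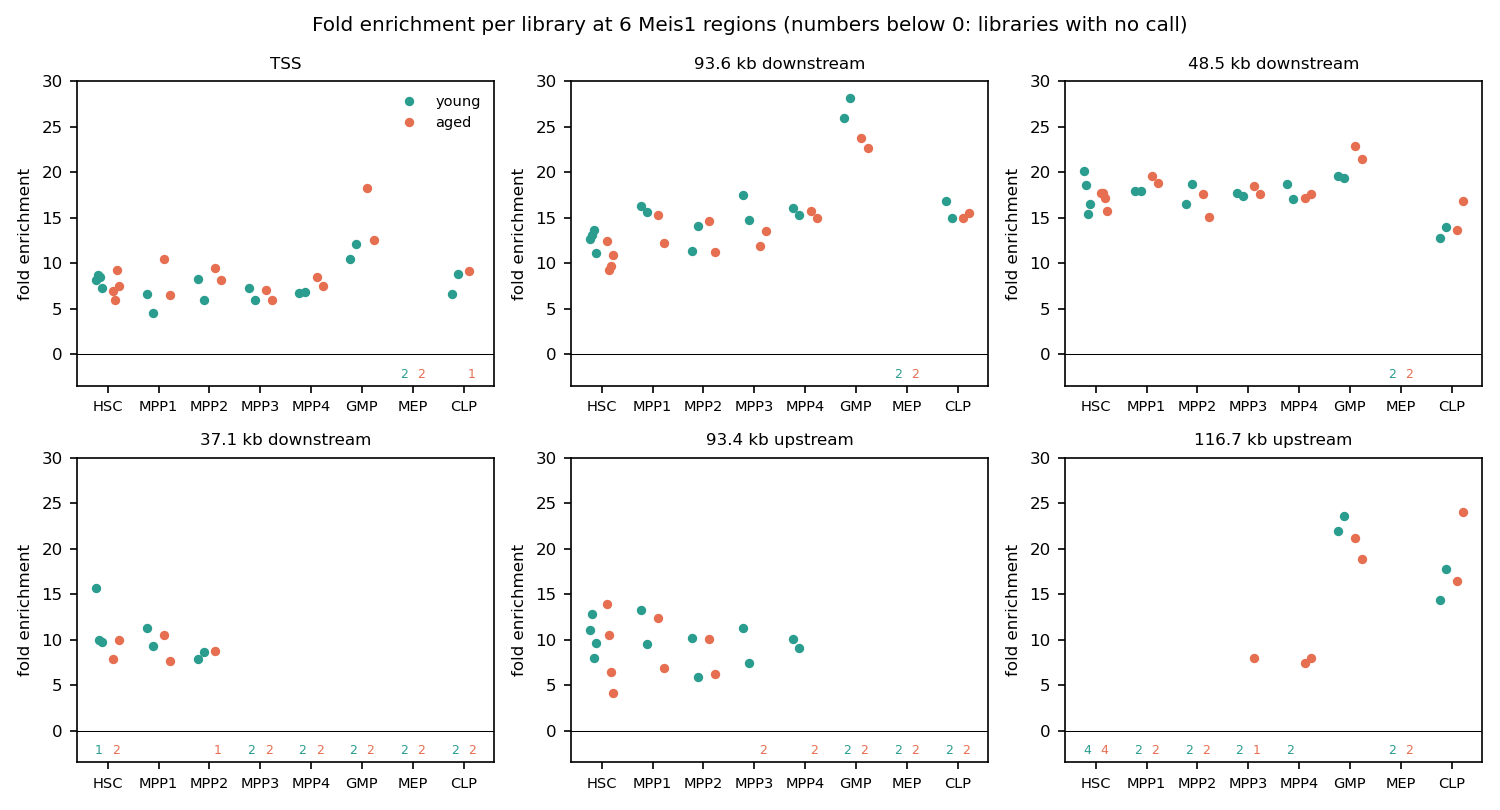
Fold enrichment (vertical axis) in each library of the 8 fractions (horizontal axis) at 6 Meis1 regions, with young libraries in green and aged libraries in orange, and the number of libraries without a call written below 0. GMPs lie highest at the TSS and at 93.6 kb downstream, the regions at 37.1 kb downstream and 93.4 kb upstream have no call in GMPs, MEPs or CLPs, and the region at 116.7 kb upstream has none in HSCs, MPP1 or MPP2.

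Which regions set HSCs and MPPs apart from GMPs, MEPs and CLPs was asked of the calls, in 24 against 12 libraries (two-sided Fisher's exact test on every region called in 1 to 35 libraries, with Benjamini-Hochberg adjustment over 99670 regions). Among the 44 Meis1 regions, 9 were called more often in HSCs and MPPs, or 20.5% where the catalogue had 11.8%, and 4 were called less often, or 9.09% where the catalogue had 15.1%. The libraries of a fraction share that fraction, so the test compares the fractions as sampled. Of the 13 regions, those 93.6 kb, 48.5 kb and 69.6 kb downstream no longer passed without any 1 of the 4 MEP libraries (adjusted p = 0.0734 to 0.0737 for the first pair), and that at 69.6 kb nor without young GMP replicate 1 (adjusted p = 0.0790). MEPs, which called almost nothing at the locus, took part in this. In a test without the MEP libraries, added after the data were seen, 3 of 42 Meis1 regions were called more often in HSCs and MPPs (catalogue 5.52%) and 6 less often (catalogue 25.8%). The 3 called more often were those 93.4 kb upstream, 362.2 kb upstream and 37.1 kb downstream. Of the 9 regions called more often with MEPs in the test, the remaining 6, among them the TSS, did not pass without MEPs or could not be tested there (those 93.6 kb and 48.5 kb downstream, called in all 32 libraries), and each was called in at least 3 of 4 GMP libraries. In CLPs 4 of them were called in 3 or 4 of 4 libraries, that 140.8 kb downstream in 2 and that 8.4 kb upstream in 1.

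The region 93.4 kb upstream (chr11:19112162-19112655) was the only one of the 44 called in all 8 HSC libraries and in no GMP, MEP or CLP library. It was called in 20 of 24 HSC and MPP libraries against 0 of 12 (adjusted p = 0.000163 by Fisher's exact test, 0.00129 without MEPs). Its fold enrichment was 11.1, 12.8, 7.96 and 9.61 in young HSCs and 14, 10.5, 6.42 and 4.12 in aged HSCs. MPP1 had 13.3 and 9.56 (young) and 12.3 and 6.86 (aged), and MPP2 10.2 and 5.87 (young) and 10.1 and 6.27 (aged). In MPP3 and MPP4 only the young libraries called it, at 11.2 and 7.39 in MPP3 and at 10.0 and 9.11 in MPP4. All 4 aged MPP3 and MPP4 libraries without a call carry the word "new" in their peak names, and so do 1 aged MPP1 and 1 aged MPP2 library that called it at 6.86 and 6.27. In HSCs, replicates 1 and 2 lay between 10.5 and 14 at both ages and replicates 3 and 4 between 4.12 and 9.61.

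The region 362.2 kb upstream (chr11:19380873-19381546) was called in 23 of 24 HSC and MPP libraries, with aged HSC replicate 4 missing, and in 2 of 12 others, both CLPs (adjusted p = 0.000244 by Fisher's exact test, 0.00439 without MEPs). HSC levels ran from 5.88 to 11.3 (median 9.48, 7 libraries). MPP4 had 11.1 to 13.4 and MPP1 had 10.6 to 13.6, while MPP2 had 8.89 to 11.2 and MPP3 had 5.88 to 9.66. CLPs had 5.32 and 6.60, and no GMP library called it. MPP4 was thus above MPP3 in every library.

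The intronic region 37.1 kb downstream (chr11:18981409-18981758) was called in HSCs, MPP1 and MPP2 alone. It had 15.7, 9.95 and 9.78 in 3 young HSC libraries and 7.93 and 10.0 in 2 aged ones. MPP1 had 11.3, 9.31, 10.5 and 7.70, and MPP2 7.86, 8.63 and 8.81 in 3 of 4 libraries. Over 12 of 24 against 0 of 12 libraries the adjusted p was 0.0257 by Fisher's exact test, and 0.0432 without MEPs. Young HSC replicates 1 and 2, which both called it, also called regions 80.5 kb and 303.1 kb downstream that no other library called.

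Other regions were open in the differentiating progenitors. The region 116.7 kb upstream (chr11:19135535-19135933) was called in all 8 GMP and CLP libraries and in 3 of 24 HSC and MPP libraries, which were all aged (1 MPP3 and 2 MPP4), and its adjusted p was 0.0233 by Fisher's exact test (0.000701 without MEPs). GMPs had 22, 23.6, 21.2 and 18.9 and CLPs 14.4, 17.7, 16.5 and 24, while the 3 MPP libraries had 8.02, 7.41 and 8.04. It was absent from the calls of all 8 HSC, 4 MPP1 and 4 MPP2 libraries. The printed window is a repeat, since 82.7% of its bases (105 of 127) matched those 74 bases further on, where the other printed windows reached at most 39.7% at any offset from 10 to 100 bases. How reads from such a repeat were placed was not tested.

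The intronic region 60.7 kb downstream was called in 8 of 8 GMP and CLP libraries and in 6 of 24 HSC and MPP libraries. Its levels were 11.1, 12.4, 12.4 and 13.5 in GMPs and 6.34 to 7.08 in CLPs, so these 2 fractions did not overlap. It did not pass the test with MEPs (adjusted p = 0.0882 by Fisher's exact test) and passed it without them (adjusted p = 0.00444).

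GMPs alone called 4 regions in 2 or more libraries. The strongest lay 204.4 kb downstream (chr11:18814166-18814493), beyond the 3′ end of the gene, with 12.5 and 13.6 in young and 10.8 and 11.9 in aged GMPs. Those 227.7 kb, 350.4 kb and 354.5 kb upstream were called in 4, 3 and 2 of 4 GMP libraries at 5.51 to 10.8. The regions at 204.4 kb and 227.7 kb passed the Fisher's exact test (adjusted p = 0.0331 each), but not without any 1 of the 4 GMP libraries (adjusted p = 0.0790 to 0.0803). That at 350.4 kb passed it only without MEPs (adjusted p = 0.0374).

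CLPs were the only fraction with 2 or more calls 452.0 kb upstream (chr11:19470783-19471260) and 21.8 kb downstream, in an intron. The former, the farthest upstream of all, was called in 4 of 4 CLP libraries at 7.45, 7.01, 5.94 and 6.31 and nowhere else (adjusted p = 0.0331 by Fisher's exact test, and 0.0719 to 0.0721 without any 1 of the 4 CLP libraries). The latter was called in 3 of 4 CLP libraries at 7.41, 9.42 and 11.7 and in 1 aged MPP4 library at 6.88. It did not pass the Fisher's exact test (adjusted p = 0.211, and 0.110 without MEPs). The region 136.8 kb upstream had another pattern, with calls in 4 of 4 MPP2 libraries (4.84 to 7.32) and both aged GMP libraries (6.73 and 6.61).

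MEP libraries called 1, 0, 0 and 1 of the 44 regions, and the 2 calls were at the same place, 184.7 kb upstream, at 6.32 (young) and 5.09 (aged). Young HSC replicate 2 was the only other library to call it, at 4.19. The 3 regions away from the TSS that all 8 HSC libraries called were in no MEP library, as were 77.7% of such regions in the whole catalogue (6801 of 8753). MEP libraries had fewer peaks at large, so their part in this and the state of the Meis1 locus itself cannot be told apart from the calls alone.

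The number of Meis1 regions called per library, shown in the plot of counts by fraction, was 12.6 ± 3.20 in HSCs (SD, n = 8). With n = 4 each, GMPs had 16.3 ± 2.99, MPP2 had 15.8 ± 1.5, MPP1 had 14 ± 2.83, CLPs had 11.8 ± 3.20, MPP4 had 11.8 ± 1.5, MPP3 had 11.5 ± 1.29 and MEPs had 0.5 ± 0.577. The 7 differences from HSCs were tested with exact two-sided permutation tests and Benjamini-Hochberg adjustment. Only that from MEPs passed, at 12.1 regions more in HSCs (adjusted p = 0.0141), and it held when each library was limited to its 9581 strongest peaks (2.38 ± 0.518 in HSCs, n = 8, against 0.25 ± 0.5 in MEPs, n = 4, adjusted p = 0.0141, exact permutation test). Without young HSC replicate 2, the library with 20 regions, HSCs also called fewer than MPP2 (-4.18, adjusted p = 0.0212, exact permutation test) and fewer than GMPs (-4.68, adjusted p = 0.0283, exact permutation test).

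GMPs called 3.63 regions more than HSCs (adjusted p = 0.269, exact permutation test), but their libraries also held the most peaks. Per 10000 peaks, HSCs had 3.89 ± 0.602 (n = 8) and GMPs 2.72 ± 0.351 (n = 4), which turned the difference round (adjusted p = 0.0141, exact permutation test). With every library other than MEPs limited to its 27087 strongest peaks, HSCs called 4 regions more than GMPs (adjusted p = 0.00707, exact permutation test). Both scalings were added after the data were seen. Peaks of -log10 q of at least 10 gave fewer regions in HSCs (-4.75, adjusted p = 0.0141, exact permutation test), and 9581 peaks per library gave a difference of 0.375 that did not pass (adjusted p = 0.632, exact permutation test). The direction of the difference between HSCs and GMPs thus varied with the setting.

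**Figure D4:**
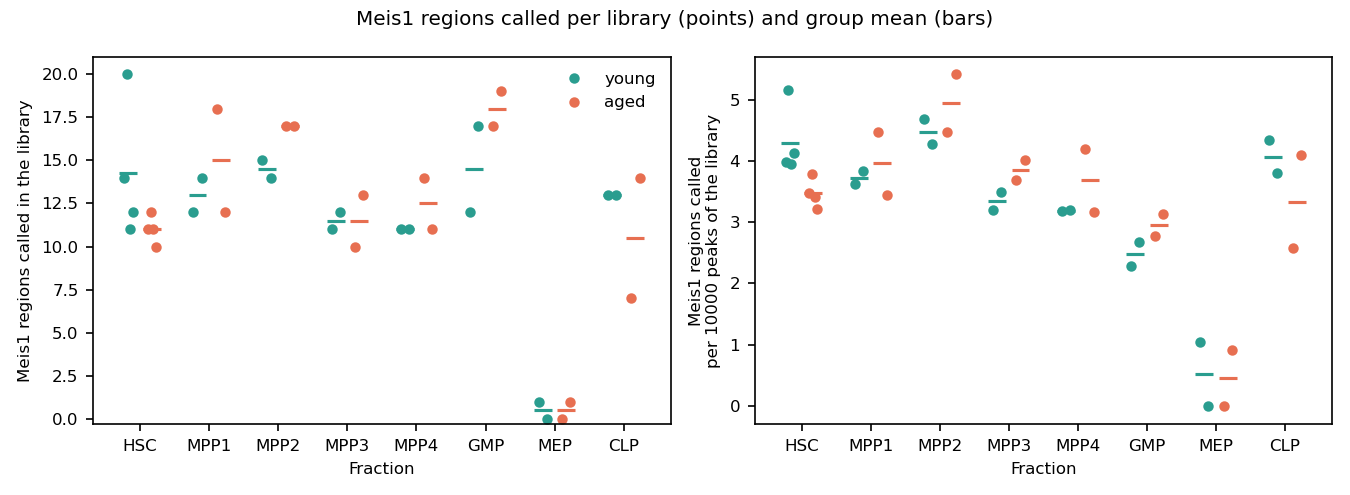
Meis1 regions called in each library (left) and the same per 10000 peaks of the library (right) by fraction, with young libraries in green, aged libraries in orange and bars at the group means. MEP libraries lie at 0 or 1 in the left panel, and in the right panel the 4 young HSC libraries (3.95 to 5.16) lie above the 4 aged ones (3.22 to 3.78).

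Levels were compared between HSCs and each other fraction with limma, on log2 fold enrichment at regions called in all libraries of the comparison, centred on the median of those regions in each library, with Benjamini-Hochberg adjustment over all of them. Differences are given as HSC minus the other fraction on the log2 scale, with their SE. At 93.6 kb downstream the level was lower in HSCs than in GMPs (-0.56 ± 0.11, limma adjusted p = 0.000191), CLPs (-0.43 ± 0.12, limma adjusted p = 0.00948) and MPP4 (-0.38 ± 0.12, limma adjusted p = 0.0403). The difference from MPP4 fell short of the threshold without any one of 9 of the 12 libraries (limma adjusted p from 0.0513 to 0.163 in these, and from 0.0271 to 0.0325 in the other 3). It also fell short when the replicate number was fitted as a block. Against MPP1, MPP2 and MPP3 the values were -0.31 ± 0.12, -0.15 ± 0.13 and -0.27 ± 0.12, and none passed (limma adjusted p = 0.335, 0.581 and 0.154).

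At 48.5 kb downstream the centred level was higher in HSCs than in GMPs (0.30 ± 0.09, limma adjusted p = 0.00672) and CLPs (0.29 ± 0.09, limma adjusted p = 0.0245). Centring took away a median difference of -0.57 between HSCs and GMPs over 13884 regions, and without it the value at 48.5 kb against GMPs turned to -0.26 (limma adjusted p = 0.0229). The difference at 93.6 kb grew to -1.13 without centring (limma adjusted p = 3.28e-08). The call against CLPs at 48.5 kb was lost without centring (0.28, limma adjusted p = 0.0696) and without young HSC replicate 1, either young CLP library or aged CLP replicate 1 (0.25 to 0.29, limma adjusted p up to 0.0976). Against MPPs the values at this region lay between -0.05 and 0.03.

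At the TSS, HSCs and GMPs differed by -0.19 ± 0.15 after centring (limma adjusted p = 0.293) and by -0.76 before it (limma adjusted p = 0.000253). The differences of the TSS from MPP1 to MPP4 lay between -0.02 and 0.28, and those of the region 93.4 kb upstream from MPP1 and MPP2 were -0.13 ± 0.22 and 0.19 ± 0.23, none past the threshold. For comparison, the share of all tested regions that were higher and lower in HSCs was 0.0479% and 0.012% against MPP1, 3.09% and 2.04% against MPP2, 7.6% and 4.51% against MPP3, 8% and 6.08% against MPP4, 28.3% and 22.9% against GMPs and 12.4% and 11.7% against CLPs. No Meis1 region was called in all HSC and MEP libraries, so MEPs could not be compared in level.

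**Figure D5:**
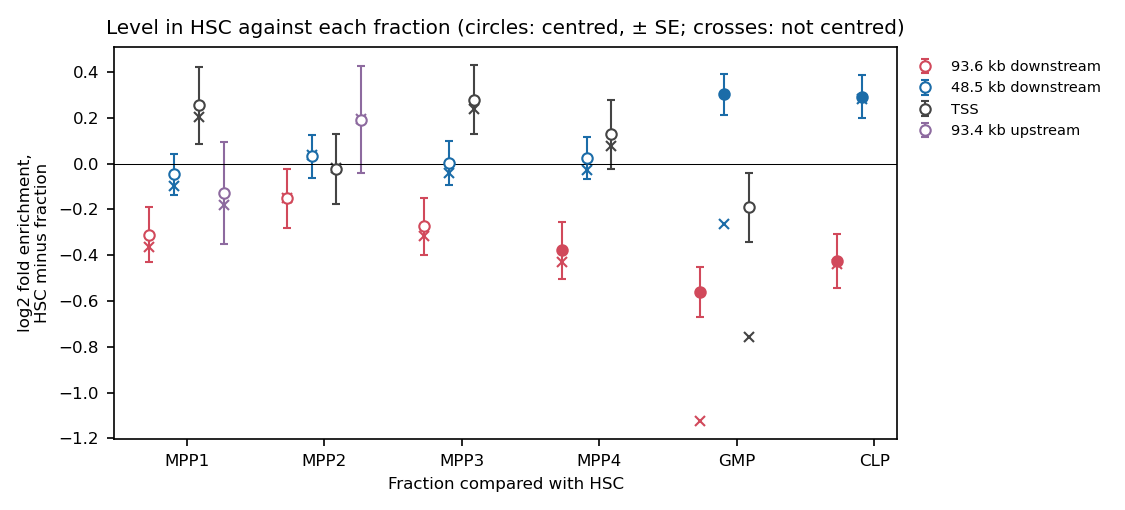
Difference in log2 fold enrichment, HSC minus the other fraction (vertical axis), at up to 4 Meis1 regions against each fraction (horizontal axis), as circles with SE after centring (filled where the limma adjusted p was under 0.05) and crosses without centring. The region 93.6 kb downstream lies below 0 throughout, and the crosses for GMPs lie 0.57 below their circles.

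Young and aged libraries were compared next. No Meis1 region passed the age test on calls, an exact conditional test with fraction as stratum over all 36 libraries, and nor did any of the 99670 regions tested, so 0% of the catalogue was called as higher and 0% as lower in aged libraries. Where calls varied in HSCs alone, the smallest p this exact test allows is 0.0286. That could not pass the adjustment over 99670 regions, so a change of calls confined to HSCs could not have been found. At an unadjusted p under 0.05 there were 611 higher and 558 lower regions in the catalogue and 0 among the 44. The 5 Meis1 regions with the smallest unadjusted p, all with an adjusted p of 1 in this exact test, were 263.7 kb downstream (0 of 18 young and 5 of 18 aged libraries, p = 0.0536), 93.4 kb upstream (12 and 8, p = 0.0556), 135.0 kb downstream (13 and 8, p = 0.0952), 116.7 kb upstream (4 and 7, p = 0.167) and 264.7 kb downstream (7 and 11, p = 0.227). The 5 aged libraries with a call 263.7 kb downstream, at 5.09 to 6.60, were 2 of HSCs and 1 each of MPP1, MPP2 and MPP3.

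No difference in level passed either. In HSCs the 4 regions called in all 8 libraries differed by -0.24 ± 0.16 (93.6 kb downstream), -0.02 ± 0.11 (48.5 kb downstream), -0.14 ± 0.18 (TSS) and -0.35 ± 0.27 (93.4 kb upstream), aged minus young in log2 ± SE, with limma adjusted p from 0.685 to 0.976. Single libraries moved these values, that at 93.4 kb upstream from -0.63 (without aged replicate 1) to -0.045 (without aged replicate 4) and that at the TSS from -0.23 (without aged replicate 3) to -0.039 (without aged replicate 2), and none passed. Of all 17340 regions, 0.0404% were higher and 0.00577% lower in aged HSCs. Over the 24 HSC and MPP libraries the values were -0.14 ± 0.07 at 93.6 kb downstream, 0.03 ± 0.06 at 48.5 kb downstream and 0.18 ± 0.10 at the TSS (limma adjusted p from 0.544 to 0.906), where 0.0223% of 13465 regions were higher and 0.0223% lower.

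Young HSC libraries called 14, 20, 11 and 12 Meis1 regions and aged ones 11, 12, 11 and 10. The ages overlapped, and the difference of -3.25 did not pass (exact permutation test, p = 0.2). Without young replicate 2 it was -1.33 (exact permutation test, p = 0.286). It was -5.5 within replicates 1 and 2 and -1 within replicates 3 and 4. Young replicate 2, with 20 regions, held the most peaks of the 8 libraries (38756). Per 10000 peaks, a scaling added after the data were seen, young HSCs had 3.98, 5.16, 3.95 and 4.13 and aged HSCs 3.49, 3.78, 3.42 and 3.22, so the ages no longer overlapped (exact permutation test, p = 0.0286, the smallest that 4 against 4 libraries allow). This call was not reached when each library was limited to its 27087 strongest peaks (-1.5, exact permutation test, p = 0.343).

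Aged minus young differences in the number of regions were 2, 2.5, 0 and 1.5 in MPP1 to MPP4, with 3.5 in GMPs and 0 in MEPs. CLPs had -2.5, with a single low library (aged replicate 1, 7 regions against 13 to 14 in the other CLP libraries). Over all fractions the mean difference was 0.469 (permutation test, p = 0.590), and CLPs moved it most, since it was 0.906 when their aged replicate 1 was left out and 0.0313 when their aged replicate 2 was. The difference in HSCs was 4.75 regions below the mean of 1.5 in MPPs, and this contrast between HSCs and MPPs passed (-4.75, exact permutation of ages within fractions, p = 0.0212). It no longer passed without young MPP1 replicate 1 (-4.5, p = 0.0550), aged MPP1 replicate 1 (-4, p = 0.0562) or aged HSC replicate 4 (-4.42, p = 0.0585), each by exact permutation, and without young HSC replicate 2 it was -2.83 (p = 0.0339). It also no longer passed with peaks of -log10 q of at least 10 (-1.88, p = 0.295, exact permutation test) nor with 27087 peaks per library (-2.13, p = 0.130, exact permutation test), and it passed per 10000 peaks (-1.26, p = 0.00137, exact permutation test).

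Short motifs were searched on both strands in the 201 bases around the median summit of each region, and matches are described as letters, not as bound sites. TGACAG, the core read by MEIS proteins, was in 10 of 44 regions (22.7%, against 16.1% of 104825 catalogue regions on the assembled chromosomes), among them those 93.6 kb downstream and 93.4 kb upstream. The HOX and PBX motif TGATNNAT was in 4 (9.09% against 6.14%), among them those 48.5 kb downstream and 362.2 kb upstream. AGATAA, read by GATA factors, was in 8 (18.2% against 10.3%), with 2 matches each at 93.6 kb and 48.5 kb downstream. In the first of these, TGACAG and AGATAA stood 3 bases apart.

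The motif TTCNNNGAA of STAT factors was in 6 regions (13.6% against 5.68%), and TGTGGT of RUNX factors in 12 (27.3% against 25.6%), among them the GMP region 204.4 kb downstream. CAGGAAG of ETS factors was in 5 (11.4% against 18.4%). The E-boxes, spelled CAGCTG or else CAGATG, were in 11 (25% against 28.2%). TTGCNNAA of CEBP factors was in 3 (6.82% against 13.2%), and so was the CTCF core, spelled AGGGGGC, with variants AGGTGGC and then AGATGGC (6.82% against 14.5%). The last letters of the MEIS motif can be the first of an E-box or of the ETS motif, and an E-box can run into the CTCF core, so a base could count for more than 1 motif. In the printed windows 37.1 kb downstream, 116.7 kb upstream and 452.0 kb upstream none of these letters occurred. GC content of the 44 regions had a median of 45.3%, from 30.6% to 63.6%, and 12 of them lay above the catalogue median of 49.4%.

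Genes of the same pathway were set beside Meis1 with the same Fisher's exact test on calls. Meis2, the closest paralog of Meis1, had 13 regions, of which 3 were called more (23.1%, against 11.8% of the catalogue) and 0 less often in HSCs and MPPs. Meis3, Pknox1 and Pknox2, of the same family, had 7, 5 and 11 regions, of which 0 were called more and 1 less in each. Meis2 regions were called at a mean rate of 35.6% in HSC, 9.62% in GMP, 7.69% in CLP and 0% in MEP libraries, while Meis1 regions were at 28.7%, 36.9%, 26.7% and 1.14%. These rates depend on how much of the catalogue a library called. Of its 105005 regions, HSC libraries called 26701 to 37422, GMP libraries 50850 to 61449, CLP libraries 26301 to 33257 and MEP libraries 9289 to 10667. Of 12 regions of 6 HOX genes 0 were called more and 1, of Hoxb4, less (8.33%, against 15.1% of the catalogue). The TSS region of Hoxa9, the partner of Meis1 in leukemia, was called in 3 of 8 HSC, 4 of 4 GMP and 0 of 4 CLP libraries. Of 16 regions of Kmt2a, Men1, Psip1 and Dot1l, which encode components or cofactors of the MLL machinery that activates Meis1 and its HOX partners, 1 was called more and 1 less (6.25% each, against 11.8% and 15.1% of the catalogue).

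The list of genes known to act downstream of Meis1 or beside it (Flt3, Erg, Sox4, Trib2, Msi2, Hlf and Hif1a) had 174 regions, with 21 called more (12.1%) and 20 less (11.5%) in HSCs and MPPs, against 11.8% and 15.1% of the catalogue. Flt3, the receptor of the lymphoid-primed progenitors, had 2 called more and 0 less among 9, and Erg, an ETS factor of stem cells, 3 more and 7 less among 34. The mean rate of calls at Flt3 regions was 43.1% in HSC, 75% in GMP, 44.4% in CLP and 0% in MEP libraries. Counts without the MEP libraries are not given for the related genes, so the part of MEPs in them stays unknown. None of the regions of these lists passed the age test. The lists were chosen with earlier results of these data known.

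Of 3097 genes with at least 10 regions, the following were among the 5 whose share of called regions varied most like that of Meis1 over the 36 libraries: Pde10a (Pearson r = 0.916, 24 regions), Tpd52 (0.916, 20 regions), Bcat1 (0.914, 31 regions) and Ap1s3 (0.906, 14 regions). The libraries of a fraction share that fraction and its number of peaks. Without the 4 MEP libraries these r values were 0.730, 0.707, 0.714 and 0.698.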

How the data were processed

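ATAC-seq peak lists of 36 libraries were analysed. The authors aligned reads with Bowtie2 to mm10, subsampled them to an equal number, and called peaks in each library with MACS2 2.2.6 at a q-value of 0.001, per the methods of the study. The deposited files give for each peak the fold enrichment over the local background, a ratio, and the -log10 q, both as MACS2 wrote them. They give no read counts, so no counting interval could be computed.

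Peaks were merged into regions, and TSSs were taken from GENCODE M21 (mm10). The members and lists were chosen with earlier results of these data known. Numbers of calls were compared by permutation (exact, or 100000 resamples), calls by two-sided Fisher's exact test or, for age, an exact test stratified by fraction, and log2 fold enrichment with limma 3.58.1 in R 4.3.3, centred on each library's median, at regions called in all libraries compared. P-values were adjusted by Benjamini-Hochberg over all regions tested, with a threshold of 0.05. The limma step was tested on simulated data. Python 3.11.15 with pandas 2.3.3, numpy 2.4.6 and scipy 1.17.1 served for the rest. Named were the TSS region, the strongest regions of HSCs, those of HSCs without calls in GMPs, MEPs or CLPs, those called most in GMPs, CLPs or MEPs with the fewest HSC and MPP calls, and the 5 with the smallest p by age. The others were chosen after their values were seen. Some of the related and most similar genes are not reported here. Other settings tried were a stricter peak set (-log10 q from 10 up), peaks that cover 50% of a region, an equal number of peaks (9581), assignment by gene body, no centring, a mean fold enrichment of at least 5, the replicate block and leaving out each library. Counts per 10000 peaks, an equal number of 27087 peaks with MEPs aside, and tests without MEPs were added after the data were seen.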

Additional observations from a re-analysis of the deposited data

Results flagged for a closer look

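The number of Meis1 regions called gave a difference between HSCs and MPPs in the effect of age that passed its test but was lost under several other settings. The mean difference, aged minus young, was -3.25 regions in HSCs and 1.5 in MPPs, a contrast of -4.75 regions (exact permutation of ages within fractions, p = 0.0212). It did not pass with peaks of -log10 q of at least 10 (-1.875, p = 0.295), with 50% of a region covered (-4.5, p = 0.0542), with 9581 peaks per library (-0.375, p = 0.631) or with 27087 peaks (-2.125, p = 0.130), nor without any one of 3 libraries (-4.5 to -4, p = 0.0550 to 0.0585), all by exact permutation. It passed per 10000 peaks (-1.26, p = 0.00137, exact permutation) and fell to -2.83 without young HSC replicate 2 (p = 0.0339, exact permutation). The values in HSCs were 14, 20, 11 and 12 (young) and 11, 12, 11 and 10 (aged). The word "new" stands in the peak names of 6 of 8 aged MPP libraries and of no young one, and its part in the contrast was not tested.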

How the results depend on the processing

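Leaving out 1 library kept the direction and the side of the threshold, or left a count within 1.5 times, in 307 of 328 leave-outs of the main comparisons, and other settings did so in 84 of 107. The 307 include counts that were 0 throughout. These were the 36 leave-outs of the age test on calls and, for limma, 8 and 24 by age and 12 each against MPP1, MPP2 and MPP3. Among the other counts, the 13 regions that differed in calls between HSCs or MPPs and the rest fell to 10 to 12 without single GMP, MEP or CLP libraries, to 9 with -log10 q of at least 10, with 27087 peaks or without MEPs, and to 11 with 50% covered. With peaks of -log10 q of at least 10, the age difference over all fractions turned to -0.3125, that of HSCs minus MPPs shrank to -1.875, HSC minus MPP4 turned to -1.75 and HSC minus GMP passed at -4.75. When a peak had to cover 50% of a region, HSCs minus MPPs by age gave -4.5 and no longer passed. With 9581 peaks per library this contrast was -0.375, HSC minus MPP2 turned to 0.375, minus MPP4 to -0.625, minus GMP to 0.375 and minus CLP to -1.125, and 2 rather than 13 regions differed in calls between HSCs or MPPs and the rest, with fewer peaks left to call. With 27087 peaks and MEPs aside, the values were -0.125 for age over all fractions, -2.125 for HSCs minus MPPs by age, 0.25 for HSC minus MPP1, -0.25 minus MPP4 and 4 minus GMP. Per 10000 peaks, age in HSCs passed at -0.829, HSC minus MPP1 was 0.0415 and HSC minus GMP 1.17. Without centring, 1 region rather than 2 passed between HSCs and CLPs, and the log2 values at 48.5 kb downstream turned to -0.015 (age in HSCs and MPPs), -0.039 (MPP3), -0.028 (MPP4) and -0.26 (GMP). The cause was not tested in any of these beyond what is said.

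Leaving out 1 library gave -4.33 to -1.33 for age in HSCs, -5.83 to -2.83 for HSCs minus MPPs by age, -4.18 to -2.71 for HSC minus MPP2, -0.179 to 1.62 minus MPP4, -5.04 to -2.71 minus GMP and -0.708 to 1.62 minus CLP. The count of regions past limma's threshold ran from 0 to 1 against MPP4 and from 1 to 2 against CLPs. In log2 values, the ranges were -0.060 to 0.015 at 48.5 kb downstream by age in HSCs, -0.26 to 0.020 (MPP1) and -0.0050 to 0.35 (MPP2) at 93.4 kb upstream, -0.17 to 0.038 at the TSS (MPP2), and -0.051 to 0.066 (MPP3) and -0.039 to 0.049 (MPP4) at 48.5 kb downstream.

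The replicate numbers did not consistently pair the samples. For this, the mean of each age was subtracted from the centred log2 fold enrichment of every region, and the remainders were correlated. The remainders of same-numbered young and aged HSC libraries correlated at 0.0783, 0.0944, 0.179 and -0.0792 over 17340 regions. Not every library correlated best with its own number. In the other fractions the same-numbered values ran from -0.0110 in MPP4, the only negative one, to 0.137 in MPP3. With the replicate block, HSC minus MEP was 13.75 and could not pass (the smallest p possible was 0.125), HSC minus MPP1 was 0.25, the log2 value at 93.4 kb upstream against MPP1 was 0.24, and 0 regions passed against MPP4 (limma, 93.6 kb downstream, adjusted p = 0.0823). The block changed no other call. Depth is not given, so weak regions near the calling limit could not be told from closed ones.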
